A study of Mus musculus with 6 samples.

Results

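The splicing factor families described here are 65 of the 23337 genes counted in MLL-AF9 transformed mouse hematopoietic stem and progenitor cells. They were chosen by gene symbol, as the genes named Srsf, Sf3a or Sf3b, U2af, Hnrnp, Prpf or Snrp. The pattern itself uses no measured value, but the families were proposed with results of this same contrast known, so the counts of changed members below describe them and support nothing further. There were 11 Srsf, 8 Sf3a and Sf3b, 3 U2af, 18 Hnrnp, 13 Prpf and 12 Snrp genes.

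Polyadenylated RNA was sequenced from cells under pro-lymphoid culture conditions (3 libraries, replicates 1, 5 and 6) and under pro-myeloid culture conditions (3 libraries, replicates 2, 3 and 4). All 6 libraries are from cells carrying the fusion oncogene MLL-AF9, which joins part of the chromatin regulator MLL to AF9, and untransformed cells were not compared. The sources used here do not give how the fusion was introduced, the age and strain of the mice, or the factors added to each culture. The labels leave unsaid whether the libraries of 1 condition are separate cultures or animals. The p-values therefore cover only the spread among these 6 libraries, and that spread may be technical.

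The libraries held 34972488 to 46724382 counts. Of 6 progenitor markers, Kit and Cd34 were called higher in pro-lymphoid culture (log2 fold changes 1.74 ± 0.41 and 1.39 ± 0.28), Hoxa9, Meis1 and the pan-leukocyte gene Ptprc lower (-0.95 ± 0.11, -1.44 ± 0.18 and -0.38 ± 0.13), and Mecom was at 0 in all libraries. The calls of Kit and Ptprc were lost without pro-lymphoid replicate 6, and that of Ptprc also without pro-lymphoid replicate 1 or 5 or pro-myeloid replicate 3 or 4. Of 12 lymphoid markers, Flt3, Il7r, Rag1 and Rag2 were called higher in pro-lymphoid culture, and Cd3e, Cd8a, Dntt and Ebf1 had at most 5 counts in any library. The untested Cd4 had 2, 21 and 5 counts in pro-lymphoid libraries and 0 in each pro-myeloid library, and Pax5 had 2, 2 and 0 counts in pro-lymphoid libraries, against 1, 81 and 78 in pro-myeloid libraries. The summed level of 9 neutrophil and granule genes was 162 to 367 CPM (counts scaled to library size) in pro-lymphoid libraries, against 4919 to 9335 CPM in pro-myeloid libraries. The macrophage markers summed to 411 to 808 CPM in pro-lymphoid libraries, against 765 to 1377 CPM in pro-myeloid libraries, with Fcgr3 and Itgam called lower and Csf1r not called. Erythroid and megakaryocyte, mast cell and stromal marker sums stayed at or below 33.7 CPM in every library, and Hba-a1, Hbb-b1, Col1a2, Col3a1 and Dcn were at 0. The mast cell and basophil markers summed to 0.445 to 1.95 CPM in pro-lymphoid libraries, against 7.16 to 28.8 CPM in pro-myeloid libraries. Their 1 tested gene was called lower. The stromal sums were 1.90 to 19.4 CPM against 6.28 to 33.7 CPM, with 2 of 3 tested genes called lower. No tested erythroid or megakaryocyte gene was called. The part of these shifts in the results below was not tested.

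Splicing removes introns from precursor RNA. The U1 particle marks the start of an intron, U2AF binds its end, and the U2 particle with its SF3A and SF3B subunits settles on the branch point before the U4/U6.U5 tri-particle joins and the PRP19 complex helps to activate the catalytic form. Sm proteins, encoded by Snrp genes, form the ring around the small nuclear RNAs, while serine/arginine-rich (SR) proteins and hnRNP proteins bind exons and introns and steer which sites are used. In human myeloid neoplasms SF3B1, SRSF2 and U2AF1 are recurrently mutated. Gene counts give the amount of transcript from each gene and say nothing of which isoforms are made.

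Of the 65 members, 63 had enough counts to be tested, of which 27 stood higher and 0 stood lower in pro-lymphoid than in pro-myeloid culture (adjusted p under 0.05 in the quasi-likelihood test of edgeR, Benjamini-Hochberg over all genes). Among all 12477 tested genes 17.4% were called higher and 21.3% lower. The median log2 fold change, pro-lymphoid minus pro-myeloid, was 0.36 over the members and 0.00 over all tested genes, and 56 of 63 members had a positive value. The changes were modest: called members stood 1.28-fold to 1.69-fold higher. The count of called members depended on the libraries used, being 9 without pro-lymphoid replicate 5, 6 without pro-lymphoid replicate 6, 12 without pro-myeloid replicate 3 and 11 without pro-myeloid replicate 4. Srsf7, Srsf4, Sf3b3, Hnrnpr, Prpf19 and Snrpd3 are the 6 that kept their call in every fit that left out 1 library.

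Every pro-lymphoid library lay above every pro-myeloid library for 39 members, and for 26.4% of all tested genes. Every pro-lymphoid library lay below for 3 members (Hnrnph2, Hnrnph3 and Hnrnpul2), and for 27.2% of all tested genes. The cultures overlapped for the other 21. Thus 13 members had no overlap in the higher direction and no call. Because these are bulk libraries, more cells of a kind and more RNA per cell cannot be told apart.

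**Figure D1:**
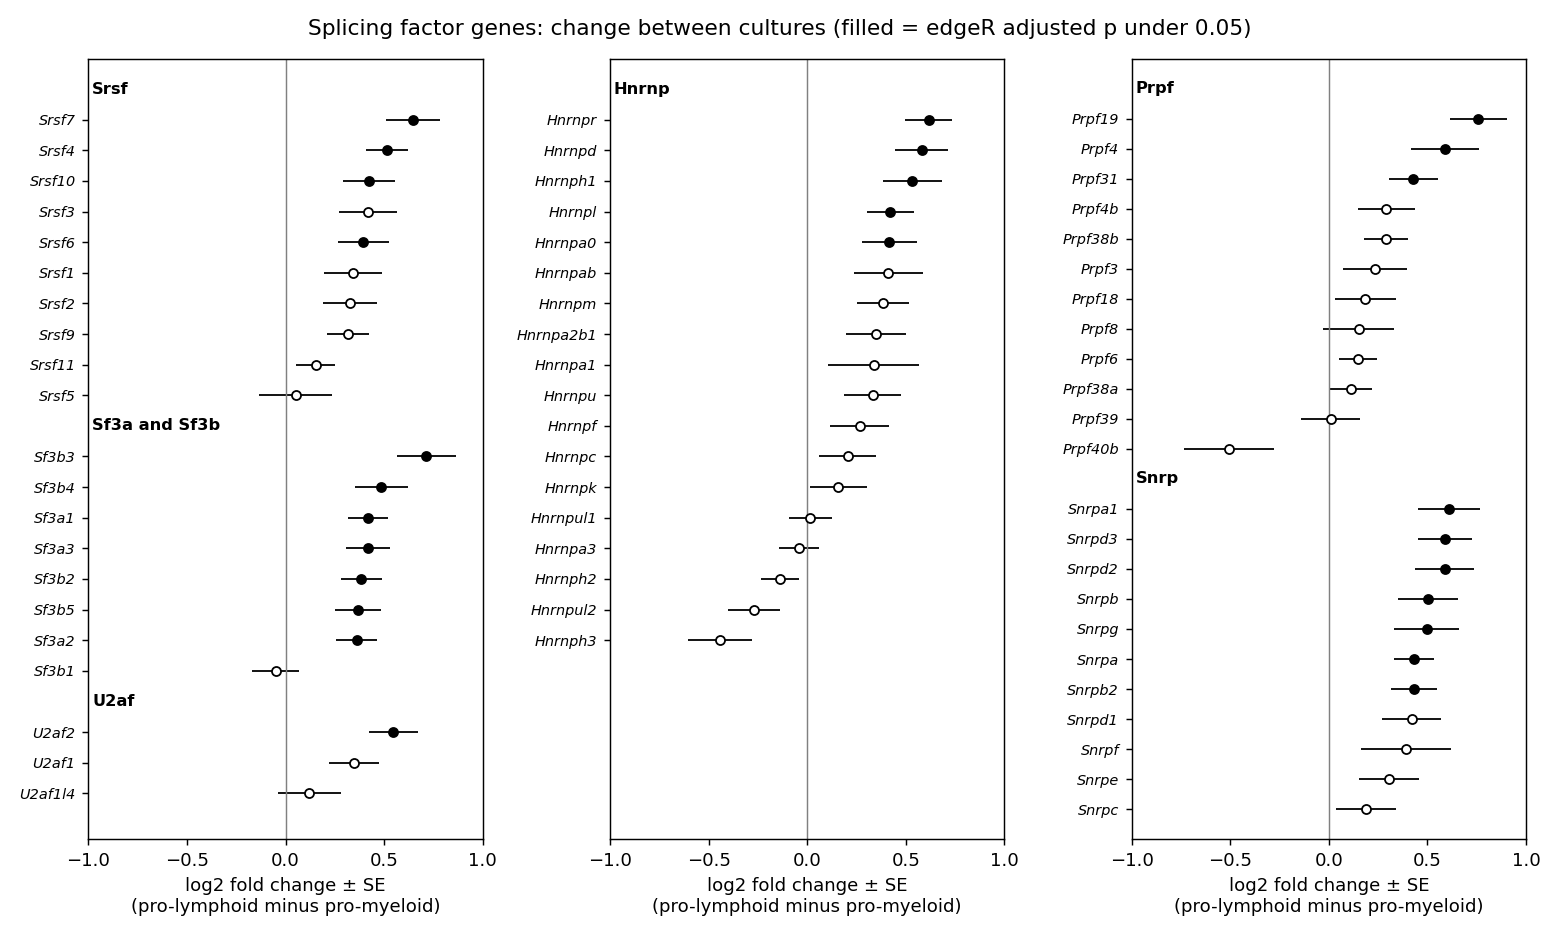
Log2 fold change (pro-lymphoid minus pro-myeloid, x axis) of 62 of the 63 tested members by family (y axis), with bars of 1 SE and filled points where the edgeR adjusted p was under 0.05. Values run between -0.51 (Prpf40b) and 0.76 (Prpf19), and all 27 filled points lie right of 0.

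Added over all 65 members, the level was 19829, 20960 and 22766 CPM in pro-lymphoid replicates 1, 5 and 6, against 17609, 15790 and 17384 CPM in pro-myeloid replicates 2, 3 and 4. The means were 21185 ± 1481 and 16928 ± 992 CPM (SD, n = 3 each), a ratio of 1.25 with no overlap (two-sided exact permutation test, p = 0.1, the lowest value possible with 3 libraries on each side). By share, the members took 2.15 ± 0.0953% of all counts in pro-lymphoid libraries and 1.67 ± 0.133% in pro-myeloid libraries. The ratio of the family sums was 1.39 for Snrp, 1.39 for U2af, 1.27 for Srsf, 1.26 for Sf3a and Sf3b, 1.23 for Hnrnp and 1.19 for Prpf. The Prpf sums overlapped, at 1970, 1816 and 1998 CPM in pro-lymphoid libraries against 1866, 1460 and 1549 CPM in pro-myeloid libraries, and those of the other families did not.

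The start regions of 6 members are printed to show what surrounds the sites where their transcripts begin. They are the called member with the largest log2 fold change in each family, among those with a RefSeq entry, and Sf3b1, whose log2 fold change was near 0. Each window runs over 250 bases before and 50 after a start, taken at the start nearest to that of the counted gene. Capitals mark the letters of the motifs searched, on either strand: the ETS-type site CCGGAAG, the GC box GGGCGG, the CCAAT box CCAAT, the letters CATGCGC of the factor NRF1, TATAAA, the E-box CACGTG and the YY1 letters AAGATGGCG. The sequences are from RefSeq on GRCm38.p6, each running 5' to 3' on the strand of the gene. Hnrnpr lies at chr4:136310692-136310991 on the plus strand, Prpf19 at chr19:10894981-10895280 on plus, Sf3b3 at chr8:110846754-110847053 on minus, Snrpa1 at chr7:66060086-66060385 on plus, Srsf7 at chr17:80207256-80207555 on minus and Sf3b1 at chr1:55027429-55027728 on minus.
Hnrnpr: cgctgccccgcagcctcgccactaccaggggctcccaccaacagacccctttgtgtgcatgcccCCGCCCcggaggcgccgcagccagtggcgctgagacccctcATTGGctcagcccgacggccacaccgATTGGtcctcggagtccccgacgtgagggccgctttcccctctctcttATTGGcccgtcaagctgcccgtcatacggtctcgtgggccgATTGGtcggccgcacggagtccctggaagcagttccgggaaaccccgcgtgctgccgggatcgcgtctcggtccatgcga
Prpf19: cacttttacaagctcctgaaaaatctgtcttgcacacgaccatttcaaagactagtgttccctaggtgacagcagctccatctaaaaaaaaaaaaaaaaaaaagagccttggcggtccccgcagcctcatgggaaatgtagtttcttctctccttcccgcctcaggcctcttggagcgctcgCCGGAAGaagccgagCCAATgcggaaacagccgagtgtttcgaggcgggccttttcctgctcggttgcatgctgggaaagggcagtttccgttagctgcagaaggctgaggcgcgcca
Sf3b3: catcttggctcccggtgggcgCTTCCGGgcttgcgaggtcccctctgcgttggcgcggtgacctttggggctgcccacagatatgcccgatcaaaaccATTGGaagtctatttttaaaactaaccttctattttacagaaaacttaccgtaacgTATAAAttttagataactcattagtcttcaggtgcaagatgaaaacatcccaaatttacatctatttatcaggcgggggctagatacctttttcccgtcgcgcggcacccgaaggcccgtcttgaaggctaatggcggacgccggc
Snrpa1: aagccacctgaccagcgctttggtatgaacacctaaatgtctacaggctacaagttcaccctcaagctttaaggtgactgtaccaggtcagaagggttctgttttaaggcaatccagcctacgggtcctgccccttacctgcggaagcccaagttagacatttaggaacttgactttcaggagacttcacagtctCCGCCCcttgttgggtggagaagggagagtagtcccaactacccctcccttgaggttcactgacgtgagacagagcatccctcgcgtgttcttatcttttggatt
Srsf7: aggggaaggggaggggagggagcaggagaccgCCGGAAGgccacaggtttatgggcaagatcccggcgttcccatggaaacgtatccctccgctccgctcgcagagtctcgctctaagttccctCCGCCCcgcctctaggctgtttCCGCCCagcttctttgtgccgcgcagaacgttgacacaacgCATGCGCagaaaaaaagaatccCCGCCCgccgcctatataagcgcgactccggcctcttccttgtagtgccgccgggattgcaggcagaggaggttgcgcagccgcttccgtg
Sf3b1: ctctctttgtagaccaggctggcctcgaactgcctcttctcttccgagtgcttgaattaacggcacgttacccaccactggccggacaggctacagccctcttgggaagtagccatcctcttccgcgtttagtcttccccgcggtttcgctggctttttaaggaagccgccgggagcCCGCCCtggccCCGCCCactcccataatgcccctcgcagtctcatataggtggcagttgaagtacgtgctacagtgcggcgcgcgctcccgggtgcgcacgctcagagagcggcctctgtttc

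RefSeq start regions were found for 57 of the 65 members, and those without include Hnrnpul2, Prpf18, Sf3b4, Sf3b5, Snrpb, Snrpd1 and U2af2. The ETS-type site occurred in 19 of them (33.3%), against 19.0% of 8837 tested genes and 11.9% of 15725 counted genes with an entry. Among members it was in 11 of 23 that were called and in 8 of 32 that were not. The GC box occurred in 64.9% of members, 64.8% of tested genes and 47.9% of counted genes, and CCAAT in 49.1%, 39.5% and 39.1%. CACGTG occurred in 14% of members, 10.3% of tested and 8.27% of counted genes, TATAAA in 10.5%, 7.12% and 13.0%, CATGCGC in 8.77%, 7.31% and 5.0%, and AAGATGGCG in 3.51%, 3.30% and 1.97%. A match is a description of letters and not of binding. The median GC content was 60.0% in members, 60.7% in tested genes and 56.7% in counted genes.

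The U2 particle proteins SF3A and SF3B had the largest called share of any family, with 7 of 8 genes higher. Over all tested genes 17.4% were called higher. Sf3b3, which encodes a large scaffold subunit of SF3B, stood at 384, 393 and 446 CPM in pro-lymphoid culture, against 288, 204 and 254 CPM in pro-myeloid culture. Its lowest pro-lymphoid library lay well above its highest pro-myeloid one (log2 fold change 0.71 ± 0.15, SE, edgeR adjusted p = 0.00944), and the call held when any single library was left out. Sf3b4, whose product contacts RNA near the branch point, stood at 136, 174 and 152 CPM in pro-lymphoid libraries, against 121, 97.7 and 111 CPM in pro-myeloid culture (0.48 ± 0.13). The 3 SF3A subunit genes moved by similar amounts, with Sf3a1 at 206, 227 and 219 CPM in pro-lymphoid libraries, against 173, 155 and 160 CPM in pro-myeloid libraries (0.42 ± 0.10). Sf3a3 (0.42 ± 0.11) and Sf3a2 (0.36 ± 0.11) also rose, as did Sf3b2 (0.38 ± 0.10) and the small subunit gene Sf3b5 (0.37 ± 0.12).

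Sf3b1, the gene of the subunit that clasps the branch point helix, was the only gene without a call among the 8 that match the pattern. It had 482, 431 and 489 CPM in pro-lymphoid culture and 526, 463 and 464 CPM in pro-myeloid culture, so the groups overlapped. Its log2 fold change was -0.05 ± 0.12 with no call (edgeR adjusted p = 0.763). Phf5a, a U2 gene whose symbol falls outside the pattern, also overlapped and had no call (0.29 ± 0.15). The differences between Sf3b1 and the other subunit genes were not tested.

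Of the calls in SF3A and SF3B, only that of Sf3b3 held in each fit that left out 1 library, and those of Sf3a1, Sf3a2, Sf3a3, Sf3b2, Sf3b4 and Sf3b5 were each lost without pro-lymphoid replicate 5, without pro-lymphoid replicate 6 and without pro-myeloid replicate 4. Without pro-myeloid replicate 3 those of Sf3a2, Sf3a3, Sf3b2, Sf3b4 and Sf3b5 were also lost. The call of Sf3b2 was also lost without pro-lymphoid replicate 1. That of Sf3b5 was also lost without pro-myeloid replicate 2, with limma-voom and without the filter.

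U2af2, the large subunit of U2AF that binds the polypyrimidine tract before the end of an intron, had 409, 437 and 468 CPM in pro-lymphoid libraries against 326, 266 and 307 CPM in pro-myeloid libraries. The groups did not overlap and the gene was called higher (log2 fold change 0.55 ± 0.12, edgeR adjusted p = 0.0117), a call lost without pro-lymphoid replicate 6. Its partner U2af1, which reads the terminal AG of the intron, had 136, 164 and 178 CPM in pro-lymphoid libraries, against 122, 119 and 134 CPM in pro-myeloid libraries, without overlap but without a call (0.35 ± 0.13, edgeR adjusted p = 0.0684). The U2af1-like gene U2af1l4 was low and overlapped, at 23.5, 29.2 and 30.4 CPM in pro-lymphoid libraries, against 22.7, 26.6 and 27.1 CPM in pro-myeloid libraries. Of the 100-base windows of U2af1l4, 97.1% also occur in transcripts of another gene, Gm49396. For U2af1, 49.5% occur in transcripts of other genes. The counts of both genes may be affected, which was not tested.

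Snrp genes rose more often than not, and had the highest median of the families, 0.43. The tested genes called higher were 7 of 11, against 17.4% of all tested genes. Of these 7, 4 encode proteins of the Sm ring and 3 are particle-specific. Snrpd3 had 132, 177 and 155 CPM in pro-lymphoid libraries, against 99.6, 96.6 and 113 CPM in pro-myeloid libraries. Snrpd2 had 146, 198 and 194 CPM in pro-lymphoid libraries, against 114, 111 and 133 CPM in pro-myeloid libraries. In both genes the lowest pro-lymphoid library, replicate 1, still exceeded every pro-myeloid library (log2 fold changes 0.59 ± 0.14 and 0.59 ± 0.15), and the call of Snrpd3 held without any single library, while that of Snrpd2 was lost without pro-lymphoid replicate 5 or 6 or pro-myeloid replicate 3.

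Snrpb (SmB) and Snrpg (SmG) were also called higher, with log2 fold changes of 0.50 ± 0.15 and 0.50 ± 0.16, calls that, among the fits leaving out 1 library, held only without pro-lymphoid replicate 1. That of Snrpg was also lost with limma-voom and without the filter. Snrpg overlapped by a little, since pro-lymphoid replicate 1 had 180 CPM and pro-myeloid replicate 4 had 182 CPM. Per exon length Snrpg was the highest member, at 573 RPKM in pro-lymphoid libraries and 406 RPKM in pro-myeloid libraries (RPKM being CPM per kilobase of exon). Snrpd1, Snrpe and Snrpf had no call, with log2 fold changes of 0.42, 0.30 and 0.39.

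Of the particle-specific genes, Snrpa1, a U2 protein, had 100, 112 and 115 CPM in pro-lymphoid libraries, against 80.6, 56.3 and 78.0 CPM in pro-myeloid libraries, with no overlap (0.61 ± 0.16, edgeR adjusted p = 0.0199). The call was lost without pro-lymphoid replicate 5 or 6. The U1 gene Snrpa and the U2 gene Snrpb2 were higher by 0.43 ± 0.10 and 0.43 ± 0.12 on the log2 scale, and Snrpc, the third U1 protein gene, overlapped between cultures (0.19 ± 0.15). The calls of Snrpa and Snrpb2 were lost without pro-lymphoid replicate 5 or 6, and that of Snrpb2 also without pro-myeloid replicate 3 or 4. Snrpn, which encodes an Sm protein of brain, had 0 counts in every library, where 3 counts correspond to 0.0650 to 0.0888 CPM, and 82.8% of its exon bases also lie in Snurf.

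Of 13 Prpf genes 3 were called higher, where 17.4% of all tested genes were called higher. Prpf19, the ubiquitin ligase at the heart of the PRP19 complex, had the largest log2 fold change of all 63 tested members. It stood at 257, 308 and 322 CPM in pro-lymphoid culture, against 202, 155 and 167 CPM in pro-myeloid culture (0.76 ± 0.14, edgeR adjusted p = 0.00604), and the call held without any single library. Prpf4 and Prpf31, both U4/U6 proteins, were also called. Prpf4 had 62.4, 65.7 and 69.5 CPM in pro-lymphoid libraries, against 52.5, 33.8 and 45.1 CPM in pro-myeloid culture (0.59 ± 0.17), and Prpf31 had 122, 133 and 140 CPM in pro-lymphoid libraries, against 109, 85.5 and 98.2 CPM in pro-myeloid libraries (0.43 ± 0.12). Neither overlapped, and both calls were lost without pro-lymphoid replicate 5 or 6 or pro-myeloid replicate 4. That of Prpf4 was also lost without pro-lymphoid replicate 1, and that of Prpf31 without pro-myeloid replicate 3.

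Prpf8, which forms the scaffold of the catalytic centre, overlapped at 727, 589 and 659 CPM in pro-lymphoid and 740, 505 and 534 CPM in pro-myeloid libraries (0.15 ± 0.18). Prpf6, which bridges the tri-particle, differed by 0.15 ± 0.10 without a call. Prpf40b, a U1-associated gene, had the most negative value of the members, at 19.4, 13.4 and 12.1 CPM in pro-lymphoid and 23.9, 22.1 and 17.9 CPM in pro-myeloid libraries (-0.51 ± 0.23, edgeR adjusted p = 0.116). Pro-lymphoid replicate 1 reached into the pro-myeloid range, and without it the gene was called lower (-0.74, adjusted p = 0.0355). Prpf39, Prpf38a, Prpf18, Prpf3, Prpf38b and the kinase gene Prpf4b had log2 fold changes between 0.01 (Prpf39) and 0.29 (Prpf4b) and no call.

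Among the SR proteins 4 of 10 tested genes were called higher, against 17.4% of all tested genes, and all 10 had positive values. Srsf7, whose SR protein also works in RNA export and 3' end choice, had 269, 328 and 352 CPM in pro-lymphoid culture, against 201, 184 and 222 CPM in pro-myeloid culture. Srsf4 had 201, 192 and 210 CPM in pro-lymphoid libraries, against 136, 154 and 132 CPM in pro-myeloid libraries. Both genes separated the cultures completely and kept their call without any single library (log2 fold changes 0.65 ± 0.14 and 0.52 ± 0.11, edgeR adjusted p = 0.00958 and 0.00838). For Srsf4, 62.5% of the 100-base windows also occur in the transcript of another gene, Gm12992.

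Srsf10, which encodes a splicing repressor that responds to heat shock, and Srsf6 were also called higher (0.42 ± 0.13 and 0.39 ± 0.13), and both calls were lost without 5 of the 6 single libraries. The call of Srsf6 was also lost with limma-voom and without the filter. Srsf2, an exon-binding activator that was the most abundant Srsf gene per length, had 590, 686 and 740 CPM in pro-lymphoid libraries, against 537, 491 and 581 CPM in pro-myeloid culture. The lowest pro-lymphoid library was only slightly above the highest pro-myeloid one, and the gene had no call (0.33 ± 0.14). Srsf1, the founding member of the family, gave 0.34 ± 0.15, Srsf3 0.42 ± 0.15 (edgeR adjusted p = 0.058) and Srsf9 0.31 ± 0.11 (edgeR adjusted p = 0.052), also without calls. Srsf11 gave 0.15 ± 0.10. Srsf5 had the smallest log2 fold change of the family, 0.05 ± 0.19, at 426, 391 and 471 CPM in pro-lymphoid libraries, against 344, 532 and 369 CPM in pro-myeloid libraries, where replicate 3 was the highest of all 6. Srsf12 had 1 count in pro-lymphoid replicate 1 and 1 in pro-myeloid replicate 3, and was not tested.

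The hnRNP genes were the largest family, with 5 of 18 called higher and 4 with negative values. Over all tested genes 17.4% were called higher. Hnrnpr had 184, 196 and 217 CPM in pro-lymphoid libraries, against 131, 117 and 141 CPM in pro-myeloid libraries, and its call held without any single library (0.62 ± 0.12, edgeR adjusted p = 0.00627). Hnrnpd, which encodes the AU-rich element binding protein AUF1, had 476, 545 and 593 CPM in pro-lymphoid libraries, against 391, 323 and 367 CPM in pro-myeloid libraries, and was called (0.58 ± 0.13). Hnrnph1, which reads G-rich runs, gave 0.53 ± 0.15, and Hnrnpl, which reads CA repeats, gave 0.42 ± 0.12. The call of Hnrnpd was lost without pro-lymphoid replicate 6, that of Hnrnph1 without pro-lymphoid replicate 1 or 6 or pro-myeloid replicate 3 or 4, and that of Hnrnpl without pro-lymphoid replicate 5 or 6 or pro-myeloid replicate 3 or 4. In all 4 genes every pro-lymphoid library exceeded every pro-myeloid library. Hnrnpa0 (0.42 ± 0.14) was called too, with an edgeR adjusted p of 0.0496, and lost the call in each of the 6 fits that left out 1 library and with the size factors of DESeq2 (RLE).

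Some abundant hnRNP genes lay above the pro-myeloid range without a call. Hnrnpa2b1, the member with the highest CPM, had 1706, 1584 and 1815 CPM in pro-lymphoid and 1448, 1267 and 1292 CPM in pro-myeloid libraries (0.35 ± 0.15). Hnrnpab was the highest hnRNP gene per length, at 470 RPKM in pro-lymphoid and 353 RPKM in pro-myeloid culture, and gave 0.41 ± 0.18. Hnrnpk, the poly(C)-binding protein gene, overlapped at 695, 742 and 872 CPM in pro-lymphoid libraries, against 696, 621 and 753 CPM in pro-myeloid libraries (0.16 ± 0.15). Hnrnpm and Hnrnpu also stood above the pro-myeloid range (0.38 and 0.33), and Hnrnpf, Hnrnpc, Hnrnpul1 and Hnrnpa3 overlapped, with values between -0.04 and 0.27.

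Of the genes with negative values, Hnrnph3 had 11.8, 10.7 and 12.5 CPM in pro-lymphoid culture, against 15.6, 14.9 and 17.2 CPM in pro-myeloid culture, with no overlap (-0.44 ± 0.16, edgeR adjusted p = 0.0668, and called lower by DESeq2 at 0.0243). Hnrnpul2 (-0.27 ± 0.13) and Hnrnph2 (-0.14 ± 0.09) were also below in every pro-lymphoid library. The level of Hnrnph3 is uncertain, since 81.4% of its exon bases also lie in Rufy2, and the counting command names no option for reads in shared bases, which the program by default assigns to neither gene. Hnrnpa1 has 91.7% of its exon bases in other counted genes and only 3.91, 4.89 and 5.35 CPM in pro-lymphoid and 3.98, 3.26 and 3.95 CPM in pro-myeloid libraries, so that its CPM covers only the part of the gene that is not shared. Snrpf has 84.5% of its bases so shared. At 50% of bases, these genes and Snrpn are the 4 affected, and 56 members share none.

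**Figure D2:**
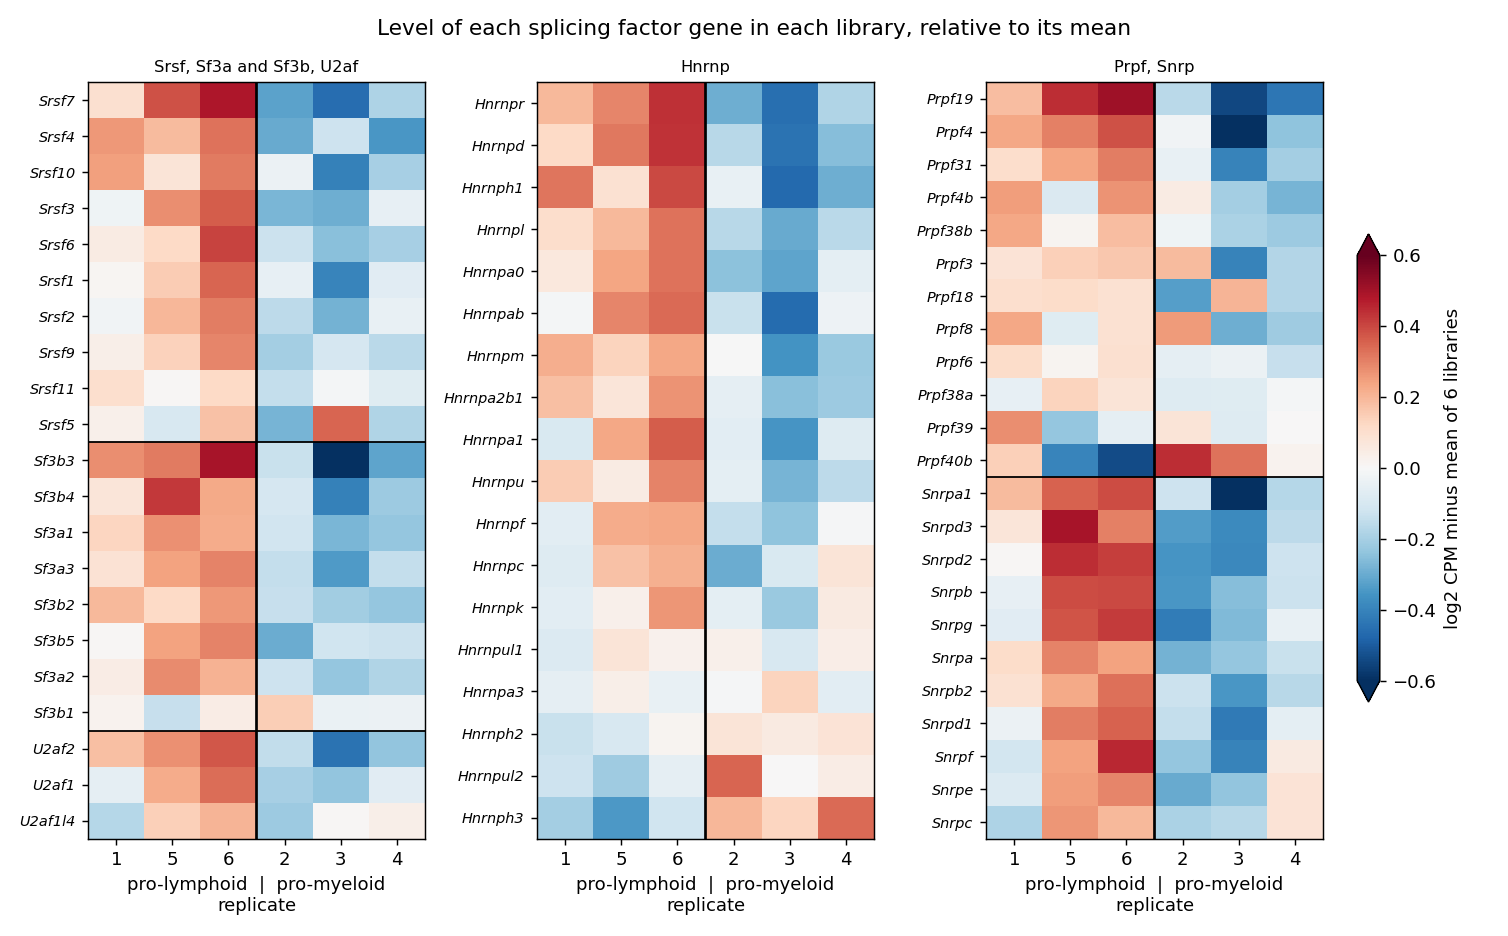
Log2 CPM of 62 tested members (rows, grouped by family) in each library (columns, replicate number), minus the mean of the 6 libraries, on a colour scale cut at 0.6 either way. Most members are above their mean in pro-lymphoid libraries, most strongly in replicate 6, and lowest in pro-myeloid replicate 3.

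Within a culture the members varied little. The median SD of log2 CPM between libraries was 0.133 over pro-lymphoid and 0.137 over pro-myeloid libraries, where all tested genes gave 0.183 and 0.243. The members and all tested genes were not matched for level. Pro-lymphoid replicate 6 held the highest pro-lymphoid value for 47 members and replicate 1 the lowest for 43. In pro-myeloid culture replicate 3 held the lowest value for 43 members. The largest spreads were in Prpf40b in pro-lymphoid culture, with 1.6-fold between its highest and lowest library, and in Prpf4 in pro-myeloid culture, with 1.55-fold.

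**Figure D3:**
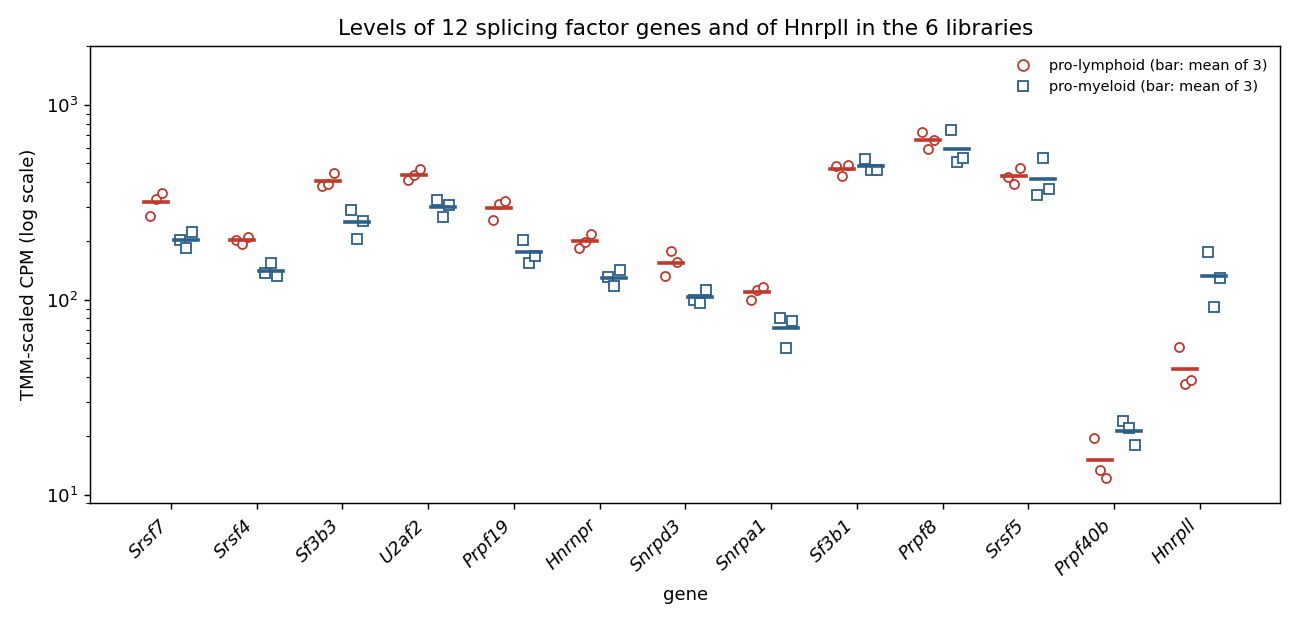
TMM-scaled CPM (y axis, log scale) of 12 members and of Hnrpll (x axis; Hnrpll is an older symbol of Hnrnpll, outside the pattern) in the libraries of pro-lymphoid culture (circles) and of pro-myeloid culture (squares); bars are means of 3. Srsf7, Sf3b3 and Prpf19 separate without overlap, Sf3b1, Prpf8 and Srsf5 overlap, and Hnrpll lies at 36.8 to 56.9 CPM in pro-lymphoid libraries, against 92.1 to 175 CPM in pro-myeloid libraries.

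Other genes linked to splicing were taken from 10 lists, with 149 distinct tested genes, of which 37 were higher and 6 lower. Among all tested genes 17.4% were called higher and 21.3% lower. Prpf4b, which had no call, is both a member and in a list. The number of list genes called either way, 43, was 26 without pro-lymphoid replicate 5, 18 without pro-lymphoid replicate 6 and 24 without pro-myeloid replicate 4. The most calls were in the list of the SMN complex and of other assembly and cap genes: 11 of 17 higher, 0 lower, median 0.67. The SMN complex loads Sm proteins onto small nuclear RNAs. Tgs1, the enzyme that adds the trimethylguanosine cap to those RNAs, had 142, 101 and 109 CPM in pro-lymphoid culture, against 55.7, 45.4 and 51.6 CPM in pro-myeloid culture (log2 fold change 1.21 ± 0.16, edgeR adjusted p = 0.00128). Gemin5, which recognises the small nuclear RNAs, and Gemin8 were higher by 0.90 ± 0.13 and 1.16 ± 0.20. Prmt5, the methyltransferase of Sm proteins, had 146, 183 and 185 CPM in pro-lymphoid libraries, against 118, 89 and 108 CPM in pro-myeloid libraries (0.71 ± 0.15). Smn1 itself (0.17 ± 0.15), Gemin2, counted as Sip1 (-0.23 ± 0.20), Gemin7 (-0.06 ± 0.13) and Phax (0.09 ± 0.12) had no call. Gemin4 (0.67 ± 0.24) and Gemin6 (0.69 ± 0.24) had none either.

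Proteins of the U1, U4/U6 and U5 particles outside the families were called higher in 6 of 12 cases (median 0.40). For this and the next lists, the shares over all tested genes were 17.4% higher and 21.3% lower. Usp39, which is needed to recruit the tri-particle, had 86.0, 99.6 and 102 CPM in pro-lymphoid and 46.5, 43.5 and 50.7 CPM in pro-myeloid libraries (1.03 ± 0.12, edgeR adjusted p = 0.000754), and Nhp2l1 and Txnl4a were higher by 0.78 ± 0.16 and 0.52 ± 0.11. Of 10 Lsm ring genes 4 were higher and 1, Lsm1 of the cytoplasmic decay ring, was lower (-0.54 ± 0.17), a call also lost without the filter, without scaling factors and with upper-quartile scaling. Of 22 genes of the PRP19 complex and the catalytic steps, Ppie and Isy1 were higher (0.83 and 0.71) and the helicase gene Dhx38 lower (-0.70). Of 13 genes listed as other branch point and U2 genes 1 was higher, Chd4, which encodes a chromatin remodeller rather than a U2 protein. The other 12 had no call. The kinases that phosphorylate SR proteins had 1 call in 9, Srpk2 (0.63 ± 0.19), and the list of minor spliceosome genes 0 in 9. That list holds none of the Snrnp genes described below, among which Snrnp48 was called higher.

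SR-related proteins had 2 calls in 20, Scaf4 and Tra2b, both higher. Over all tested genes 17.4% were called higher and 21.3% lower. Of 16 exon junction and nonsense-mediated decay genes 3 were higher, among them Rnps1 and Upf1, and Smg8, counted as 1200011M11Rik, was lower, a call also lost without scaling factors. Of 22 other regulators, 7 were higher and 3 lower. Mbnl1, a muscleblind regulator, was higher by 0.63 ± 0.15, whereas its paralogs Mbnl2 and Mbnl3 were lower, by -0.86 ± 0.17 and -1.21 ± 0.24. Rbm38 was higher (0.94 ± 0.19), and Rbfox2 had 0 counts in every pro-lymphoid library, against 5.60, 0.622 and 2.34 CPM in pro-myeloid libraries.

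Of the genes named from these lists, Tgs1, Gemin5, Gemin8, Prmt5, Usp39, Nhp2l1, Txnl4a, Ppie, Isy1, Mbnl2, Mbnl3 and Rbm38 kept their call without any single library. Without pro-lymphoid replicate 6 the calls of Lsm1, Dhx38, Chd4, Srpk2, Tra2b, Rnps1, Upf1, Smg8 and Mbnl1 were lost, and without pro-myeloid replicate 4 those of Lsm1, Chd4, Srpk2, Scaf4, Tra2b, Rnps1, Upf1, Smg8, Mbnl1 and Rbfox2. Without pro-lymphoid replicate 5 those of Lsm1, Dhx38, Chd4, Tra2b, Upf1 and Smg8 were lost. Without pro-lymphoid replicate 1 the calls lost were those of Lsm1, Chd4, Srpk2, Upf1 and Smg8, without pro-myeloid replicate 2 those of Lsm1, Upf1 and Smg8, and without pro-myeloid replicate 3 those of Chd4, Srpk2, Tra2b and Upf1.

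**Figure D4:**
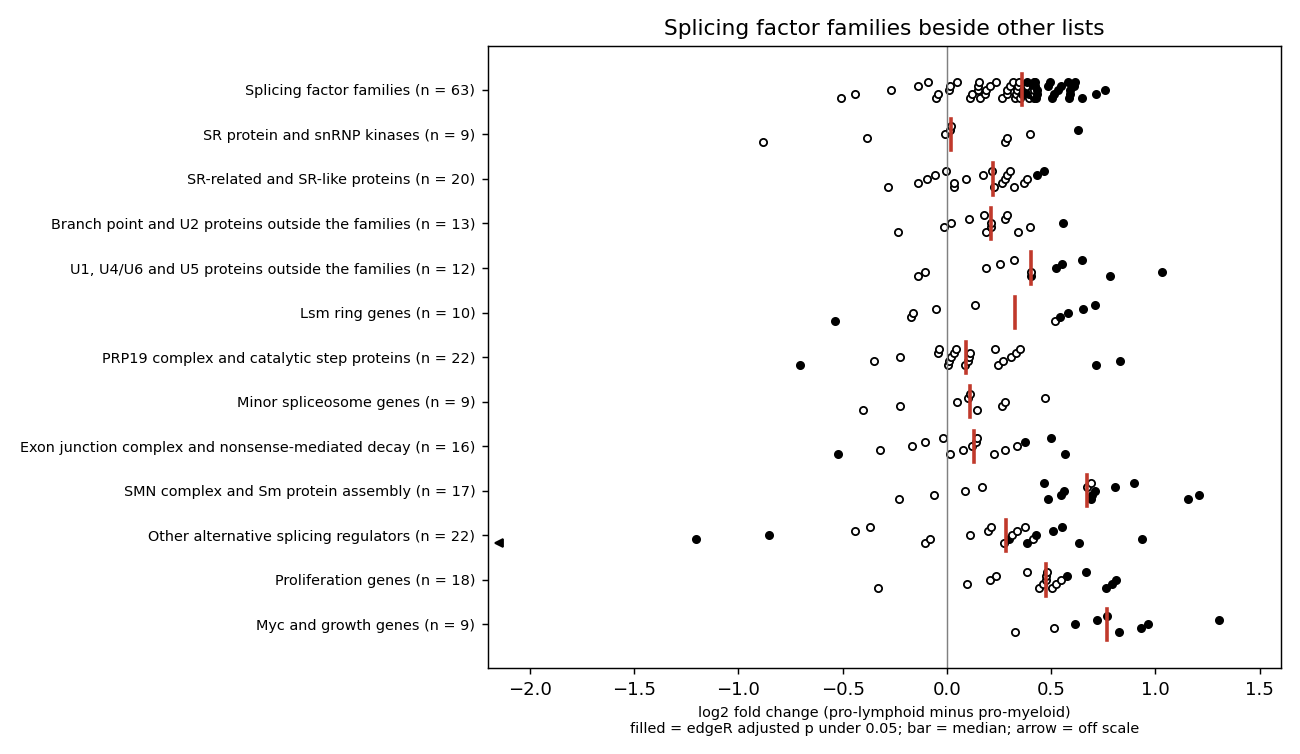
Log2 fold change (pro-lymphoid minus pro-myeloid, x axis) of the tested genes of the splicing factor families and 12 other lists (y axis, with the number tested), filled where the edgeR adjusted p was under 0.05, with a bar at the median; an arrow marks Rbfox2, which is off scale. Medians are 0.36 for the families, 0.67 for the SMN list and 0.77 for Myc and growth genes.

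Growth genes moved in the same direction as the members. Of 9 tested Myc and growth genes 7 were higher, with Myc at 306, 302 and 348 CPM in pro-lymphoid and 140, 82.9 and 164 CPM in pro-myeloid libraries (1.31 ± 0.24), and their sum was 4393 to 5636 CPM in pro-lymphoid libraries, against 2488 to 3370 CPM in pro-myeloid libraries. Of 18 proliferation genes 5 were higher, 4 of them Mcm genes, with a sum of 6323 to 6952 CPM in pro-lymphoid libraries, against 3611 to 5855 CPM in pro-myeloid libraries. Among all tested genes 17.4% were called higher. Of these 5 only Mcm6 kept its call without any single library, and Mki67, Aurka and Ccnb1 overlapped between cultures. The part of the growth and proliferation genes in the difference of the splicing factor families was not tested.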

How the data were processed

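A single table of raw read counts for 6 libraries was deposited by the authors, with the exon length of each gene beside it (another column, in bases). Counting used featureCounts 1.5.1 over exons of mm10 and ignored strand, per the file headers. Trimmomatic, Bowtie, TopHat and DESeq2 also appear in the submitters' processing notes. Per the labels' protocols, poly(A) RNA was made into libraries with a NEBNext kit, which does not mark strand, and read as single 100-base ends, so that a gene and an overlapping antisense gene cannot be told apart.

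Genes passing filterByExpr were fitted with edgeR 4.0.16 (R 4.3.3; glmQLFit with its newer, non-legacy setting, TMM scaling, factors 0.961 to 1.05) and tested with glmQLFTest, two-sided, with Benjamini-Hochberg adjustment at 0.05. CPM values are TMM-scaled, and RPKM uses the deposited exon length. An SE was derived from the F statistic. Sums were compared with exact permutation tests. Depth was 34972488 to 46724382 counts, and n is 3 in each culture. The count of copied windows used GENCODE M21 transcripts, with windows of 100 bases. Alternatives were other scalings and filters, DESeq2 1.42.0, limma 3.58.1 (voom), a minimum log2 fold change of 1 and each library left out.

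The members, the lists of other genes, the motifs and the rule for named genes were chosen with earlier results of these data known. The rule named up to 4 called members per family with the largest change and at least 5 CPM, the highest member per length, the most variable member, a panel of 16 genes, members removed by the filter, and up to 3 genes per list with the smallest adjusted p. Other members named were chosen after their values were seen. Hnrnpll was looked up under its older symbol Hnrpll, and 9 other list genes were also found under older symbols. Some genes of the families and lists enter the counts but are not reported here by name.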

Additional observations from a re-analysis of the deposited data

How the results depend on the processing

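For the named genes under the alternatives run, 869 values stayed on their side of the threshold, 23 gained a call, 102 lost it and 0 calls reversed. The members Hnrnpa3, Hnrnpul1, Prpf39, Sf3b1 and Srsf5, with no call in any fit, had log2 fold changes of either sign. Leaving out 1 library gave 6 to 26 called members in place of 27, 3086 to 5385 called genes in place of 4821 and 18 to 51 called genes of the other lists in place of 43. The members called numbered 9 without pro-lymphoid replicate 5, 6 without pro-lymphoid replicate 6, 12 without pro-myeloid replicate 3 and 11 without pro-myeloid replicate 4. The genes of the other lists called numbered 26 without pro-lymphoid replicate 5, 18 without pro-lymphoid replicate 6 and 24 without pro-myeloid replicate 4. A fit without a library has fewer samples and less power by construction. With a minimum absolute log2 fold change of 1, 2620 genes and 0 members were called, a stricter threshold by construction. Other fits called 24 (no filter, limma-voom) to 35 (DESeq2) members, and the median stayed between 0.28 and 0.42 over the alternatives run. The older fit of edgeR, an alternative chosen after seeing the data, called 25 members and 4665 genes. The median log2 fold change of all genes was 0.0469 with upper-quartile scaling and 0.0447 without scaling factors. No paired analysis was possible because no replicate number occurs in both cultures.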

Other observations

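Some relatives of the families carry symbols outside the pattern, looked up after values were seen. Hnrpll, the older symbol of Hnrnpll, encodes an hnRNP L-like regulator known in mouse lymphocytes for CD45 splicing. It had 56.9, 36.8 and 38.9 CPM in pro-lymphoid culture, against 175, 92.1 and 130 CPM in pro-myeloid culture, and was lower (log2 fold change -1.58 ± 0.27, edgeR adjusted p = 0.0037) with no overlap and a call that held without any single library. Its relative Hnrpdl was higher (0.50 ± 0.11), a call lost without pro-lymphoid replicate 6 or pro-myeloid replicate 4. Of 7 Snrnp genes, Snrnp48 (0.77 ± 0.16) and Snrnp40 (0.38 ± 0.12) were higher, the call of Snrnp48 holding without any single library and that of Snrnp40 holding only without pro-lymphoid replicate 1 and lost without the filter. The U1 protein gene Snrnp70 (0.17 ± 0.11) and the U5 helicase gene Snrnp200 (0.02 ± 0.14) had no call. The gene Gm5643, whose annotation overlaps Hnrnpa1, had 67.7, 77.6 and 91.7 CPM in pro-lymphoid and 57.8, 44.1 and 58.7 CPM in pro-myeloid libraries (0.56 ± 0.16), a call lost without pro-lymphoid replicate 5 or 6 or pro-myeloid replicate 3 or 4.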
